A study of Canis lupus familiaris with 39 samples.

Results

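Normal heart was set directly against normal skeletal muscle of the dog, using 8 of the 39 Affymetrix Canine 2.0 arrays of a survey of 10 organs. The members were the 4 arrays labelled heart and the 4 arrays labelled skeletal muscle, and all probesets of the deposited expression table were compared between them. A probeset is the group of short probes on the array that reads 1 transcript, and its value is given as log2 signal, so that a difference of 1 is a 2-fold difference in signal. The organs were collected from dogs of both sexes, beagles and mixed breed animals between the ages of pup and adult, and each sample was judged pathologically normal. None was treated. The sources do not state which chamber of the heart or which skeletal muscle was sampled, nor that arrays with the same number came from the same dog. By the study's methods all organs came from the same 4 dogs, so heart and skeletal muscle samples share donors, which the comparison does not take into account. Differences below are heart minus skeletal muscle throughout, and a gene was called when its adjusted p from limma was under 0.001, the false discovery rate used by the study.

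Heart and skeletal muscle are both striated muscle and contract by the same sliding of myosin past actin, switched on by calcium through the troponin complex. They build this machinery partly from the same genes and partly from different members of the same gene families. Heart cells are joined end to end by intercalated discs and use calcium entry to open the ryanodine receptor of the sarcoplasmic reticulum, whereas skeletal fibres are single long cells, fast or slow, in which a voltage sensor acts on the ryanodine receptor directly.

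The 4 defining markers separated the organs on every array. TNNT2, cardiac troponin T, read 13.34, 13.52, 13.79 and 13.61 on the heart arrays, against 5.03, 6.15, 3.91 and 4.17 on the skeletal muscle arrays. MYBPC3, cardiac myosin binding protein C, read 11.66, 11.59, 11.79 and 11.74 in heart, against 4.26, 4.14, 3.93 and 3.85 in skeletal muscle. In the opposite direction, TNNC2, the troponin C of fast fibres, read 3.98, 3.60, 3.99 and 3.87 in heart, against 13.23, 13.54, 13.31 and 13.56 in skeletal muscle. ACTN3, the alpha-actinin of fast fibres, read 4.14, 3.98, 4.16 and 3.88 in heart, against 11.81, 11.32, 11.86 and 11.31 in skeletal muscle. The markers went with the label on all 8 arrays, and these 2 fast fibre genes were bright on every skeletal muscle array.

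After 38 probesets of pancreatic enzyme genes were set aside, 1101 of 42822 probesets were higher in heart (2.57% of those tested) and 590 were lower (1.38%). Of these, 192 were more than 10-fold higher (0.448%) and 142 more than 10-fold lower (0.332%). Counted over 15098 genes, each read by its brightest probeset on the 8 arrays, 413 genes were higher in heart (2.74%) and 226 lower (1.50%), and 70 and 63 of them passed 10-fold. The balance of the 2 directions followed the scaling. Probesets higher in heart made up 65.1% of the calls as deposited and 36.3% once the arrays were shifted to a common median of 16 housekeeping genes, which moved the median difference by -0.37. Large differences were less touched by this, with 144 probesets more than 10-fold higher and 159 more than 10-fold lower after the shift. The arrays of the called genes did not overlap between the organs for 394 of the 413 genes higher in heart and for 210 of the 226 lower, beside 6.23% of all genes entirely higher in heart and 5.50% entirely lower, 11.7% together.

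**Figure D1:**
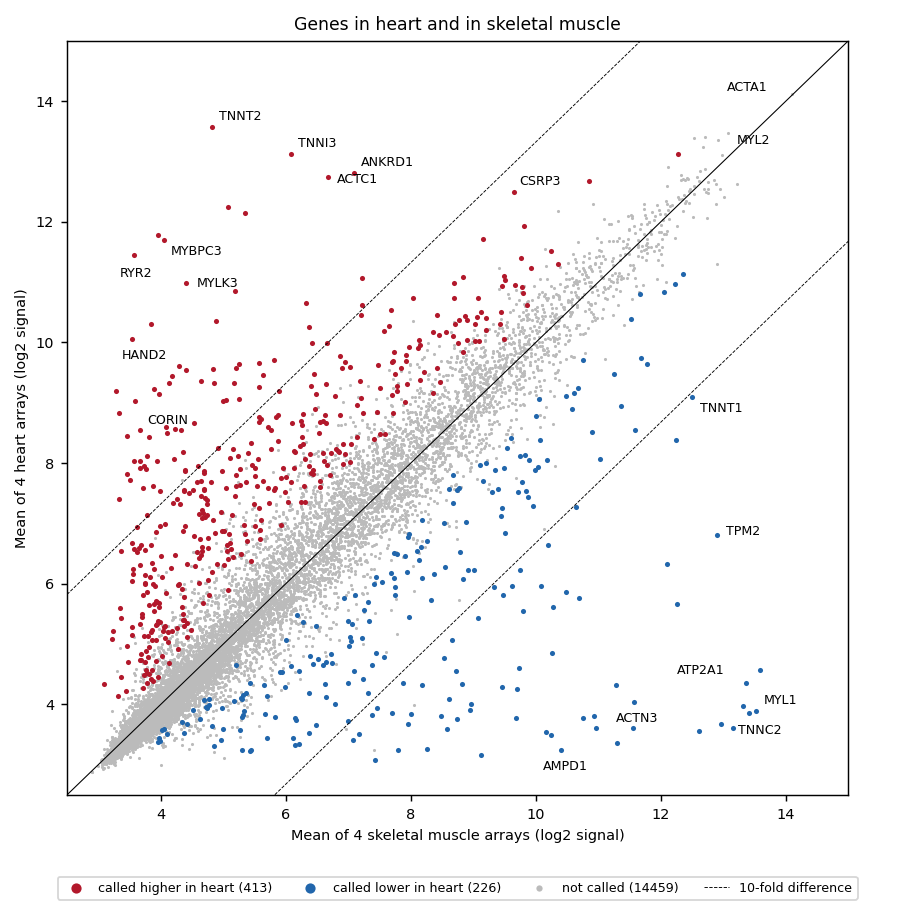
Mean log2 signal of each gene on the 4 heart arrays (vertical axis) against its mean on the 4 skeletal muscle arrays (horizontal axis), with the 413 genes called higher in heart, the 226 called lower and all others. The solid line marks equal signal and the dashed lines a 10-fold difference. ACTA1 and MYL2 lie at the bright end near the line of equal signal, while TNNT2 and RYR2 stand far above it and TNNC2 and MYL1 far below it.

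The heart arrays were alike, with correlations of 0.955 to 0.985 over all probesets, whereas the skeletal muscle arrays spread further. Skeletal muscle 1 correlated at 0.889 to 0.896 with the other skeletal muscle arrays, which correlated at 0.925 to 0.962 among themselves, and heart with skeletal muscle arrays reached 0.859 to 0.925. Transcripts of pancreatic digestive enzymes were present on skeletal muscle 1, 3 and 4. PNLIP, pancreatic lipase, read 3.69, 3.56, 3.71 and 4.13 in heart, against 7.95, 4.01, 9.25 and 11.08 in skeletal muscle, and the summed signal of 17 pancreatic genes spanned 237.4 to 387.4 in heart and 239.2 to 8934 in skeletal muscle. These genes were set aside and their 7 calls, all lower in heart, are not counted. Other probesets high in pancreas stayed in the counts. Of 24 such probesets called lower in heart, more than 10-fold above the mean of the 7 remaining organs in pancreas, 13 were set aside. With all of them set aside, 579 probesets were lower in heart in place of 590. Skeletal muscle 1 differed from its group in another way too. Among the 226 genes lower in heart, 34 read more than 1 below the other skeletal muscle arrays on skeletal muscle 1, against 8, 3 and 4 on skeletal muscle 2, 3 and 4. CASQ1, the calcium store protein of fast fibres, illustrates it, at 6.02 on skeletal muscle 1 and at 10.06, 9.27 and 9.55 on the others. What sets this sample apart was not tested, and values without it are given where they change a call or a fold by much.

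**Figure D2:**
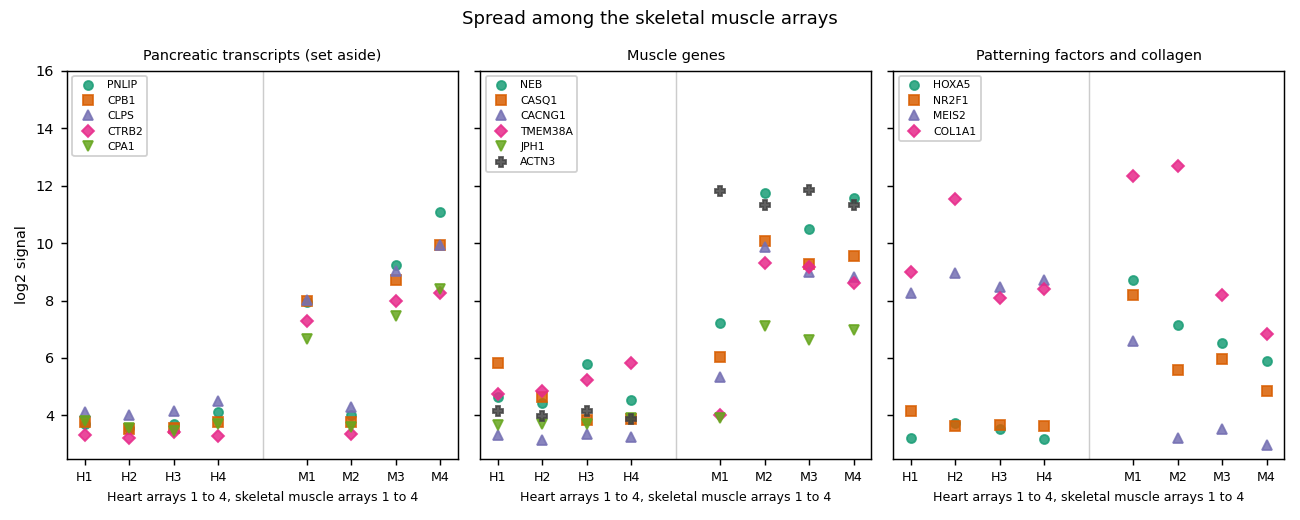
Log2 signal on heart arrays 1 to 4 (H1 to H4) and skeletal muscle arrays 1 to 4 (M1 to M4) for pancreatic transcripts, for muscle genes, and for patterning factors with a collagen. Pancreatic transcripts are raised on M1, M3 and M4, whereas several muscle genes are low on M1 with ACTN3 as bright there as on the others, and COL1A1 is brightest on M1, M2 and H2.

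Most troponin genes fell into a heart form and a fast skeletal form. Of the 3 parts of the complex, troponin C binds calcium, troponin I holds back the actin filament and troponin T ties the complex to tropomyosin. TNNT2 was 430-fold higher in heart (difference 8.75 ± 0.26, SE, adjusted p = 6.47e-23). TNNI3, cardiac troponin I, read 13.20, 12.93, 13.16 and 13.20 in heart, against 7.24, 5.66, 6.46 and 4.95 in skeletal muscle, a difference of 7.04 (adjusted p = 1.7e-17). Every heart array stood far above every skeletal muscle array, and the skeletal muscle arrays were themselves above the background level of about 4. TNNT3, the troponin T of fast fibres, read 3.54, 3.45, 3.65 and 4.02 in heart, against 12.64, 13.19, 12.86 and 13.18 in skeletal muscle, and was 631-fold lower in heart. TNNI2, the troponin I of fast fibres, averaged 4.56 ± 0.21 in heart and 13.58 ± 0.14 in skeletal muscle (SD, n = 4 each), and TNNC2 was 747-fold lower in heart. The slow forms behaved differently. TNNC1, the troponin C shared by heart and slow fibres, read 13.32 to 13.38 in heart and 12.67 to 13.27 in skeletal muscle, and its difference of 0.43 was not called (95% confidence interval -0.04 to 0.90). TNNT1, slow troponin T, was 9.99, 9.12, 9.70 and 7.56 in heart, against 12.86, 12.65, 12.55 and 11.96 in skeletal muscle. It was thus 10.6-fold lower in heart, yet well above background there.

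Myosin light chains divided in the same way. MYL7, the regulatory light chain known from atrial muscle, read 11.22, 12.37, 11.41 and 12.11 in heart, against 3.84, 4.29, 3.76 and 3.96 in skeletal muscle, a 226-fold difference. The fast light chains MYL1 and MYLPF gave the mirror image. MYL1 read 3.54, 3.71, 4.43 and 3.88 in heart, against 13.52, 13.72, 13.24 and 13.63 in skeletal muscle, and was the gene furthest below in heart (difference -9.64, 796-fold). MYLPF averaged 3.97 ± 0.11 in heart and 13.32 ± 0.19 in skeletal muscle. By contrast, MYL2, the regulatory light chain of ventricle and slow fibres, averaged 13.47 ± 0.17 in heart and 13.08 ± 0.20 in skeletal muscle and was not called (difference 0.39, 95% confidence interval -0.42 to 1.21). MYL3, the essential light chain of the same cells, was 1.8-fold higher in heart (adjusted p = 0.000375). That call was lost without heart replicate 1, 3 or 4, without skeletal muscle replicate 2 or 4, after the housekeeping shift (adjusted p = 0.0609) and with an intensity trend in limma's prior variance (adjusted p = 0.00147).

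Among the heavy chains, MYH7, the motor of ventricle and slow fibres, was bright in both organs. Its brightest probeset read 13.32, 13.31, 13.45 and 13.50 in heart, against 13.01, 12.59, 12.16 and 12.33 in skeletal muscle. The arrays did not overlap, but the difference of 0.87 was not called (adjusted p = 0.0214), while 2 of its 5 probesets were called higher. MYH2, the motor of fast oxidative fibres, read 3.44, 3.44, 3.71 and 3.81 in heart, against 13.28, 12.89, 13.29 and 13.13 in skeletal muscle. MYH1, a second fast motor, read 3.58, 3.50, 3.59 and 3.79 in heart, against 11.18, 13.34, 8.60 and 13.11 in skeletal muscle. The skeletal muscle arrays agreed closely for MYH2 and spread over more than 4 for MYH1, with skeletal muscle 3 the lowest. Without that array the difference in MYH1 was -8.93, and without skeletal muscle 2 it was -7.35, in place of -7.94. MYH3, the embryonic motor, was 127-fold lower in heart, or 222-fold without skeletal muscle 3 and 82.5-fold without skeletal muscle 2, and MYH4 was 2.04-fold lower, with a difference that is small on the log2 scale and arrays that overlapped. Called lower were 1 of 3 probesets of MYH1, 1 of 2 of MYH3 and 1 of 2 of MYH4. The fast heavy chain genes are near-identical neighbours and their probesets may share signal, so these values cannot be assigned to 1 gene each with certainty. MYH7B, an ancient slow-type myosin gene, was 2.45-fold higher in heart but was not called after the housekeeping shift (difference 0.92, adjusted p = 0.0128).

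Proteins that sit on or act on the thick filament followed the same split. MYLK3, the cardiac kinase of the regulatory light chain, read 11.23, 10.35, 11.15 and 11.19 in heart, against 4.04, 6.33, 3.49 and 3.74 in skeletal muscle, a difference of 6.58, or 7.22 without skeletal muscle 2. Its skeletal counterpart MYLK2 averaged 3.77 ± 0.07 in heart and 9.69 ± 0.65 in skeletal muscle, 60.4-fold lower in heart. MYBPC3 was 200-fold higher in heart, whereas MYBPC1 and MYBPC2, the slow and fast binding proteins C, were 536-fold and 125-fold lower. Over the whole list of thick filament genes, 5 of 20 were higher in heart and 10 lower, where all genes gave 2.74% and 1.50%. The median difference was -0.40 beside -0.05 for all genes.

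**Figure D3:**
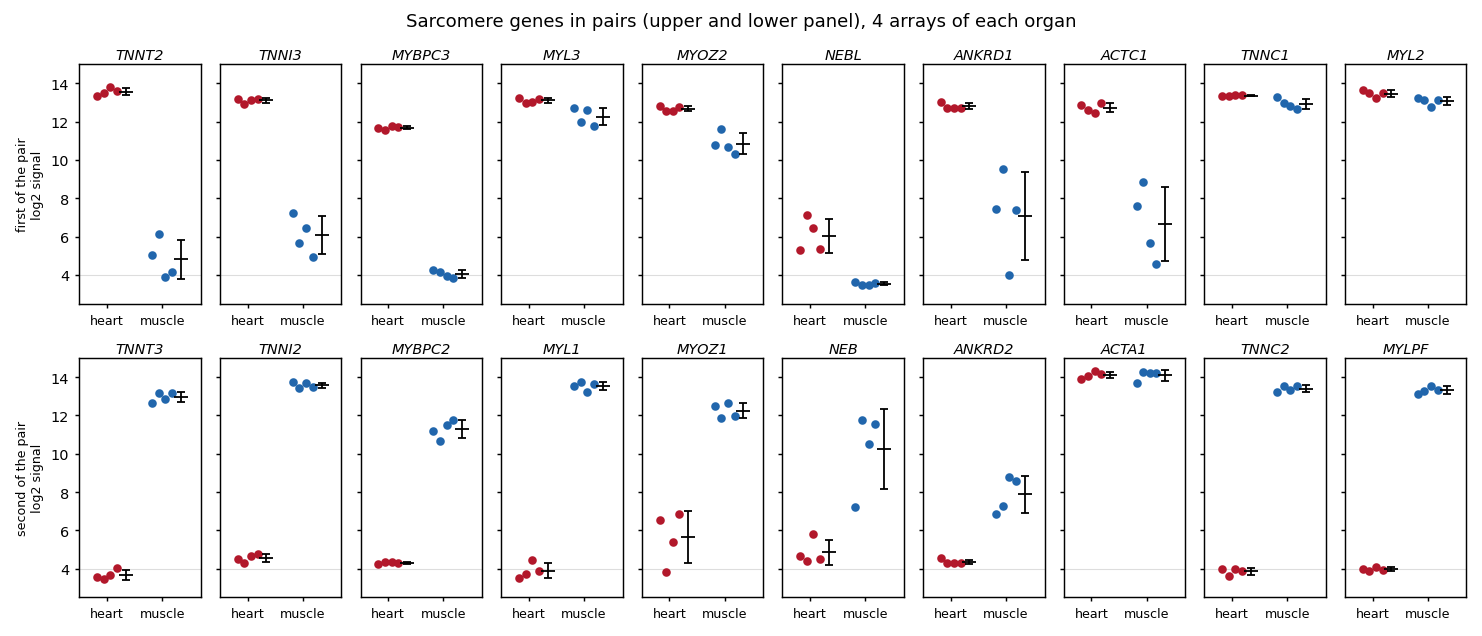
Log2 signal of 10 pairs of sarcomere genes on the 4 heart arrays (left in each panel) and the 4 skeletal muscle arrays (right), with the mean and SD as a bar. TNNT2, TNNI3 and MYBPC3 are far brighter in heart and their lower partners far brighter in skeletal muscle, while TNNC1, MYL2 and ACTA1 are bright in both.

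Actin itself was more lopsided. ACTC1, cardiac actin, read 12.89, 12.63, 12.48 and 12.97 in heart, against 7.58, 8.88, 5.67 and 4.58 in skeletal muscle, and was 66.9-fold higher in heart, or 111-fold without skeletal muscle 2 and 41.2-fold without skeletal muscle 4. With skeletal muscle 2, its highest skeletal muscle array, as the only one of its group, the difference was 3.86 and was not called (adjusted p = 0.053). ACTA1, skeletal actin, was the brightest of these genes in both organs, at 13.92, 14.08, 14.30 and 14.14 in heart and 13.68, 14.27, 14.19 and 14.22 in skeletal muscle. Its difference was 0.02, and the 95% confidence interval of -0.90 to 0.94 still allows nearly a 2-fold difference either way. Both signals lie near the top of the measured range, where arrays can saturate.

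Several other thin filament genes were lower in heart. TPM2, beta-tropomyosin, read 7.61, 6.11, 6.98 and 6.56 in heart, against 12.14, 13.56, 12.96 and 12.90 in skeletal muscle. TPM1, alpha-tropomyosin, read 13.31 to 13.48 in heart and 11.34, 13.28, 13.14 and 13.06 in skeletal muscle, with skeletal muscle 1 alone far below. This brightest probeset was not called, while 1 of the 4 TPM1 probesets was called higher in heart. NEB, nebulin, the giant ruler along the actin filament, read 4.65, 4.42, 5.81 and 4.52 in heart, against 7.22, 11.74, 10.50 and 11.58 in skeletal muscle, a difference of -5.41, or -6.42 without skeletal muscle 1. Its small cardiac relative NEBL, nebulette, went the other way, at 5.29, 7.11, 6.45 and 5.33 in heart and 3.46 to 3.63 in skeletal muscle. Of the 8 probesets of NEBL, 3 were called higher in heart. LMOD3 and TMOD4, which nucleate and cap actin filaments, were 108-fold and 165-fold lower in heart, whereas LMOD2, leiomodin 2, averaged 11.52 ± 0.23 in heart and 11.03 ± 0.74 in skeletal muscle and was not called. In all, 4 of 20 thin filament genes were higher in heart and 8 lower, beside 2.74% and 1.50% of all genes.

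Several sarcomere genes and myoglobin were bright in both organs. Over all genes, 53 had a mean above 12 in heart and in skeletal muscle, of which 1, MYL3, was called. Of all genes, 2.74% were called higher in heart and 1.50% lower. No value of the 8 arrays exceeded 14.30, so a mean above 12 in both organs limits the difference by selection. The count therefore only describes these genes. TTN, titin, the spring of the sarcomere, averaged 12.48 ± 0.22 in heart and 12.75 ± 0.18 in skeletal muscle at its brightest probeset. That probeset was not called, but 9 of the 20 titin probesets were called lower in heart. ACTN2, the alpha-actinin of heart and all fibres, averaged 12.16 ± 0.24 in heart and 11.86 ± 0.34 in skeletal muscle (95% confidence interval of the difference -0.54 to 1.15). MB, myoglobin, averaged 13.10 ± 0.17 in heart and 12.97 ± 0.38 in skeletal muscle (95% confidence interval -0.97 to 1.23). ACTN3 was 185-fold lower in heart beside it.

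Paired relatives in general showed 1-sided or 2-sided splits. Of 45 pairs listed, 34 had both genes on the array. In 8 pairs the heart partner was higher and the muscle partner lower, in 11 only the heart partner was higher, in 11 only the muscle partner was lower, and in 4 neither was called. No pair ran against its listed direction. The pairs were drawn up from known roles and with earlier results of these arrays in view, so this count describes the pairs and is no independent evidence.

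The Z-disc, which anchors actin filaments and senses stretch, held some of the most divided genes. FHL2, a LIM protein of heart, read 12.36, 11.69, 12.13 and 12.78 in heart, against 6.66, 4.11, 5.78 and 3.75 in skeletal muscle, a 143-fold difference. ANKRD1, a stretch-responsive cardiac ankyrin repeat protein, read 13.03, 12.74, 12.73 and 12.71 in heart, against 7.45, 9.53, 4.01 and 7.37 in skeletal muscle. The heart values lay within 0.32 of each other while the skeletal muscle values spanned more than 5, and the difference of 5.72 was 4.69 without skeletal muscle 3 and 6.53 without skeletal muscle 2. ANKRD2, its skeletal relative, read 4.28 to 4.54 in heart and 6.86, 7.26, 8.79 and 8.60 in skeletal muscle. The calsarcins split by degree. MYOZ2, of heart and slow fibres, averaged 12.68 ± 0.13 in heart and 10.86 ± 0.55 in skeletal muscle, 3.53-fold higher in heart, whereas MYOZ1, of fast fibres, read 6.56, 3.85, 5.37 and 6.87 in heart and 11.87 to 12.65 in skeletal muscle. MYOT, myotilin, showed a similar spread in heart, at 7.75, 3.62, 7.25 and 6.67, against 11.74 to 12.48 in skeletal muscle. For both genes heart 2 was the lowest heart array and read at background. Without it the differences were -5.99 for MYOZ1 and -4.87 for MYOT, in place of -6.60 and -5.78.

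CSRP3, the muscle LIM protein, was 7.2-fold higher in heart, HSPB7, a small heat shock protein of muscle, 4.35-fold higher, and TRIM55, a ubiquitin ligase of the M-band, 5.05-fold higher. The call on HSPB7 was lost without skeletal muscle replicate 1 or 2 and after the housekeeping shift. PDLIM3, a partner of actinin, averaged 8.38 ± 0.32 in heart and 12.24 ± 0.33 in skeletal muscle, and FHL3 was 12.5-fold lower in heart, or 22.6-fold without skeletal muscle 1 and 7.32-fold without skeletal muscle 3. FHL1 was bright in both organs and its brightest probeset was not called (difference -1.60, adjusted p = 0.0798), although 2 of its 5 probesets were called lower. Over the Z-disc and M-band list, 8 of 52 genes were higher in heart and 12 lower, beside 2.74% and 1.50% of all genes. The other 32 were not called.

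Genes of the fast fibre programme had the largest share of genes lower in heart among the lists. Of 20 measured, 14 were lower in heart and 0 higher, with a median difference of -6.78 beside -0.05 for all genes, and 14 were also called lower without skeletal muscle 1, with skeletal muscle 1, 3 and 4 left out, and after the housekeeping shift. By limma's unadjusted p under 0.05, 18 were lower and 0 higher, beside 10.8% of all genes lower and 10.6% higher at that threshold. The slow fibre list was mixed, with 4 of 16 higher in heart and 4 lower, beside 2.74% and 1.50% of all genes, and a median of 0.49. The 4 higher were CSRP3, MYOZ2, MYH7B and MYL3, and 2 were called higher after the housekeeping shift. The 4 lower were TNNT1, ANKRD2, MYL6B, a slow and non-muscle light chain, and CA3, carbonic anhydrase 3. CA3 read 3.60, 3.51, 3.55 and 3.54 in heart, against 7.79, 10.88, 11.32 and 10.69 in skeletal muscle, so that this slow fibre enzyme was at background in heart. Its difference of -6.62 was -7.42 without skeletal muscle 1. MYL6B averaged 5.86 ± 1.02 in heart and 10.49 ± 1.11 in skeletal muscle.

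Genes of calcium release and uptake were called in both directions. RYR2, the cardiac ryanodine receptor, read 11.61, 11.42, 11.58 and 11.19 in heart, against 3.60, 3.52, 3.76 and 3.41 in skeletal muscle. It was 235-fold higher in heart (difference 7.88 ± 0.20, SE, adjusted p = 1.86e-24), and brain, at 7.92, was the next organ. FKBP1B, the calstabin that binds this receptor, read 8.67, 8.56, 9.44 and 9.45 in heart, against 4.14, 3.52, 3.44 and 3.23 in skeletal muscle. SLC8A1, the sodium-calcium exchanger that clears calcium from the heart cell, averaged 6.60 ± 0.70 in heart and 3.65 ± 0.07 in skeletal muscle, 7.72-fold higher in heart. CAMK2D, the main cardiac calcium-calmodulin kinase, averaged 8.80 ± 0.80 in heart and 6.63 ± 1.23 in skeletal muscle. Its call was marginal (adjusted p = 0.000988) and was lost without heart replicate 1, 2 or 3, without skeletal muscle replicate 1 or 3, and after the housekeeping shift (adjusted p = 0.00296).

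ATP2A1, the calcium pump of fast fibres, read 4.29, 4.41, 4.33 and 4.38 in heart, against 13.14, 13.44, 13.21 and 13.64 in skeletal muscle, 513-fold lower in heart. A second of its 3 probesets was called lower too, and the remaining one read 4.93 to 5.99 on all 8 arrays and was not called. ATP2A2, the pump of heart and slow fibres, averaged 12.85 ± 0.19 in heart and 12.62 ± 0.14 in skeletal muscle (difference 0.22, 95% confidence interval -0.36 to 0.80). PLN, phospholamban, which restrains this pump, read 11.66, 11.41, 11.49 and 11.67 in heart, against 10.88, 9.86, 9.74 and 10.08 in skeletal muscle. This probeset was not called (adjusted p = 0.0379), while the other 2 probesets of PLN were called higher, with differences of 3.30 and 2.88. HRC, a calcium-binding protein of the store, averaged 10.24 ± 0.41 in heart and 9.91 ± 0.22 in skeletal muscle and was not called. STRIT1, a micropeptide that relieves the pump, averaged 3.36 ± 0.07 in heart and 11.30 ± 0.57 in skeletal muscle, 245-fold lower in heart.

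The voltage sensor of the skeletal fibre was at background in heart. CACNA1S, its pore subunit, read 4.14, 4.36, 4.34 and 4.34 in heart, against 8.78, 9.90, 9.68 and 9.45 in skeletal muscle. STAC3, an adaptor that the sensor needs, averaged 3.59 ± 0.14 in heart and 8.57 ± 0.36 in skeletal muscle. CACNG1, its gamma subunit, read 3.15 to 3.36 in heart and 5.35, 9.88, 9.01 and 8.80 in skeletal muscle, with skeletal muscle 1 far below the others. CASQ1 averaged 4.55 ± 0.92 in heart and 8.73 ± 1.83 in skeletal muscle, and JPH1, the junctophilin that ties the T-tubule to the store, averaged 3.75 ± 0.12 in heart and 6.16 ± 1.50 in skeletal muscle. JPH1 on skeletal muscle 1, at 3.92, was at the level of heart. Without that array the differences were -5.97 for CACNG1, -5.08 for CASQ1 and -3.16 for JPH1, in place of -5.00, -4.18 and -2.41. TMEM38A, a potassium channel of the store, read 4.75, 4.86, 5.22 and 5.81 in heart, against 4.02, 9.29, 9.17 and 8.62 in skeletal muscle. It was not called with all arrays (adjusted p = 0.00168) and was called without skeletal muscle replicate 1 (difference -3.86, adjusted p = 1.1e-17). The probesets of RYR1, the skeletal ryanodine receptor, and CACNA1C, the cardiac pore subunit, read between 3.36 and 4.48 on all 8 arrays and stayed near background. Of 45 calcium handling genes, 5 were higher in heart and 11 lower, beside 2.74% and 1.50% of all genes. Without skeletal muscle 1, 15 were lower, while the calls lower in heart over all probesets rose from 590 to 794.

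Triadin, which links the ryanodine receptor to the calcium store, was the 1 gene of 8240 with more than 1 probeset whose probesets were called in opposite directions. Of the 9 probesets of TRDN, 2 were higher in heart and 3 lower. The brightest read 10.19, 9.66, 10.32 and 7.76 in heart, against 11.44, 11.17, 11.07 and 11.33 in skeletal muscle. Another read 10.63, 10.72, 10.51 and 9.37 in heart, against 4.23, 3.94, 3.63 and 3.69 in skeletal muscle, a difference of 6.44 (adjusted p = 2.86e-22). A further one was at 8.21, 7.97, 8.44 and 6.28 in heart and at 4.32, 4.06, 3.94 and 3.87 in skeletal muscle. Triadin signal was thus strong in both organs, and the direction of the difference depended on the probeset. Heart 4 was the lowest heart array for each of these 3 probesets.

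**Figure D4:**
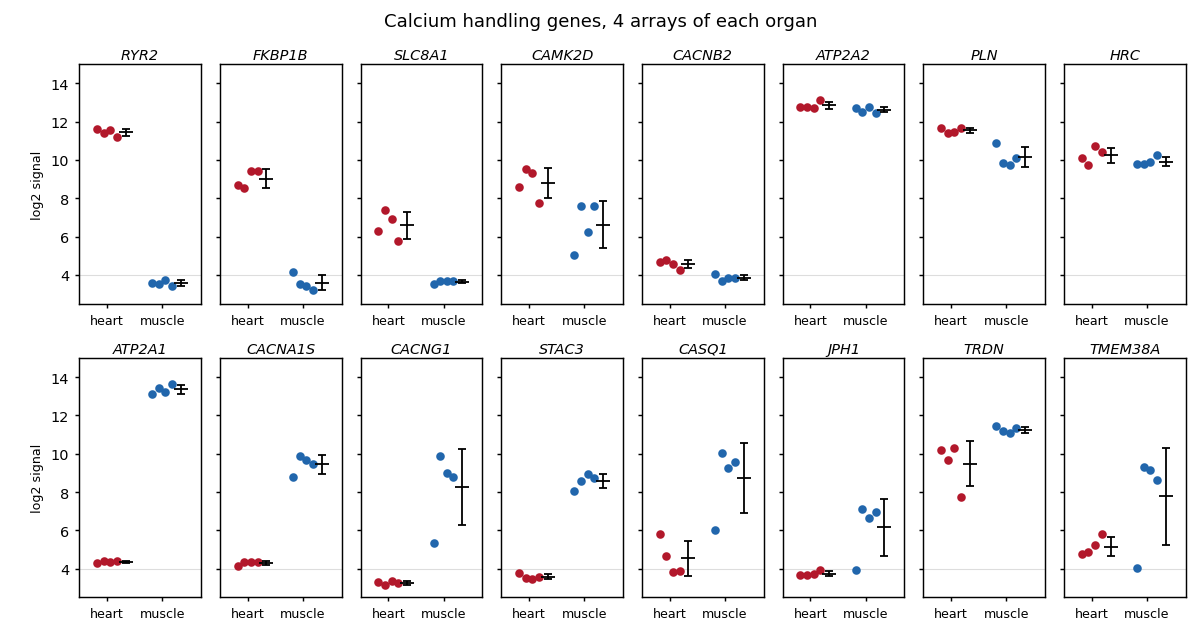
Log2 signal of 16 calcium handling genes on the 4 heart arrays (left in each panel) and the 4 skeletal muscle arrays (right), with the mean and SD as a bar and a grey line at 4, near background. RYR2 and FKBP1B are bright only in heart, ATP2A1, CACNA1S and STAC3 only in skeletal muscle, ATP2A2 and HRC in both, and CACNG1, CASQ1, JPH1 and TMEM38A are low on 1 skeletal muscle array.

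Channels of the surface membrane were called in both directions. KCNIP2, the accessory subunit of the transient outward potassium current, read 8.91, 7.93, 9.96 and 9.78 in heart, against 3.92, 3.87, 4.07 and 4.04 in skeletal muscle, 36-fold higher in heart. KCNJ8, the pore of an ATP-sensitive potassium channel, averaged 9.64 ± 0.56 in heart and 5.24 ± 1.21 in skeletal muscle. GJA1, connexin 43, the main gap junction protein of working heart muscle, read 7.13, 6.56, 6.91 and 6.54 in heart, against 4.35, 4.48, 4.84 and 4.45 in skeletal muscle. CLCN1, the chloride channel that steadies the skeletal fibre membrane, averaged 3.33 ± 0.06 in heart and 6.14 ± 0.82 in skeletal muscle. KCNJ12, an inward rectifier, was 5.8-fold lower in heart, or 9.32-fold without skeletal muscle 1, and ATP1B4, a muscle protein related to the sodium pump, 9.63-fold lower. With only the 8 arrays in the limma fit, the calls on KCNJ8, CLCN1, ATP1B4 and KCNJ12 (adjusted p = 0.153) were lost. Of 50 channel genes, 4 were higher in heart, 6 lower and 40 not called, where all genes gave 2.74% higher and 1.50% lower.

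The intercalated disc list had the largest share of genes higher in heart. Of 22 genes, 12 were higher and 0 lower, beside 2.74% and 1.50% of all genes. In the list, 21 lay above 0, and the median difference was 2.02, or 1.65 after the housekeeping shift. By limma's unadjusted p under 0.05, 16 were higher and 1 lower, beside 10.6% and 10.8% of all genes. CDH2, N-cadherin, which joins the ends of heart cells, read 10.22, 10.49, 10.28 and 10.26 in heart, against 4.07, 3.57, 4.22 and 3.50 in skeletal muscle, 88.9-fold higher in heart. Of the desmosomal genes, DSC2, PKP2 and DSP were called and DSG2 and JUP were not. DSC2, desmocollin 2, read 9.38, 9.88, 9.27 and 8.41 in heart and 3.67 to 4.26 in skeletal muscle. PKP2, plakophilin 2, read 8.44, 8.85, 8.69 and 7.84 in heart and 3.12 to 3.85 in skeletal muscle. DSP, desmoplakin, read 8.30, 7.65, 8.08 and 7.74 in heart and 3.38 to 4.06 in skeletal muscle. No skeletal muscle array had any of these 3 above 4.26. DSG2, desmoglein 2, read near background, at 4.27 to 4.92 in heart and 4.19 to 4.87 in skeletal muscle. PERP, a desmosome-associated membrane protein, was 45.4-fold higher in heart and SORBS2, an adaptor of the disc, 20.2-fold higher. JUP, plakoglobin, shared by desmosomes and other junctions, averaged 7.36 ± 0.32 in heart and 6.06 ± 0.52 in skeletal muscle and was not called (adjusted p = 0.00214). The desmosomal genes are also those of epithelia, and jejunum was brighter than heart for DSC2, at 10.22, but not for DSP, at 5.80.

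Most transcription factors of either lineage were not called, and those that were mostly followed their list. Mean signal was below 5 in both organs for 17 of 27 cardiac and 31 of 39 skeletal factors, which left little signal to compare. HAND2, a factor of heart development, read 9.80, 10.36, 9.89 and 10.15 in heart, against 4.17, 3.25, 3.42 and 3.33 in skeletal muscle, 90.9-fold higher in heart. NKX2-5, the homeobox factor of heart muscle, read 7.16, 7.06, 7.12 and 7.20 in heart, against 5.35, 4.76, 5.52 and 4.92 in skeletal muscle. GATA6 averaged 6.01 ± 0.76 in heart and 3.75 ± 0.18 in skeletal muscle. MEIS2, a homeobox cofactor, read 8.25, 8.95, 8.46 and 8.73 in heart, against 6.60, 3.21, 3.53 and 2.98 in skeletal muscle, where only skeletal muscle 1 was above background, and without that array the difference of 4.52 was 5.36. GATA4 and ZFPM2, its partner, were called higher but by 0.56 and 1.05, from low signal in both organs. Neither was called after the housekeeping shift, nor was GATA4 without heart replicate 4. The probesets for TBX5 and TBX20, further cardiac factors, stayed between 3.30 and 4.01 on all 8 arrays. Of 27 cardiac factors, 7 were higher in heart and 1, NR2F1, was lower, beside 2.74% and 1.50% of all genes. After the housekeeping shift 4 were higher and 1 lower.

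MYF6, a skeletal myogenic regulator that is kept in adult fibres, read 3.99, 3.90, 3.86 and 4.04 in heart, against 5.69, 8.18, 7.81 and 8.17 in skeletal muscle, 11.4-fold lower in heart, or 17.2-fold without skeletal muscle 1. MEF2C, a factor of both kinds of muscle, averaged 6.09 ± 0.45 in heart and 8.84 ± 1.04 in skeletal muscle. TBX15, a T-box factor of fast fibres, read 3.36 to 3.53 in heart and 3.64, 6.63, 6.20 and 6.36 in skeletal muscle, a difference of -2.27, or -2.96 without skeletal muscle 1. TBX1 and TEAD4 were 2.91-fold and 3.56-fold lower. HOXA5, a factor that marks position along the body, read 3.19 to 3.73 in heart and 8.71, 7.15, 6.51 and 5.90 in skeletal muscle, and HOXA4 was 4.61-fold lower in heart, or 2.74-fold and not called without skeletal muscle 3. NR2F1, an orphan nuclear receptor, read 3.64 to 4.15 in heart and 8.18, 5.59, 5.95 and 4.87 in skeletal muscle. For HOXA5, NR2F1 and MEIS2 skeletal muscle 1 was the highest of its group, and for MYF6 and TBX15 the lowest. Without it the difference in NR2F1 was -1.70, in place of -2.38, and was not called (adjusted p = 0.00586). Of 39 skeletal factors, 9 were lower in heart and 0 higher, beside 1.50% and 2.74% of all genes. By limma's unadjusted p under 0.05, 17 were lower and 0 higher, where all genes gave 10.8% and 10.6%. The calls on HOXA4 and NR2F1 were also lost without any 1 of the heart arrays, and that on NR2F1 without skeletal muscle 3.

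Adrenergic and cyclic nucleotide signalling had 10 of 39 genes higher in heart and 1 lower, beside 2.74% and 1.50% of all genes. After the housekeeping shift 8 were higher and 3 lower, and the median difference of 0.24 became -0.13. The lean of the list as a whole thus depends on the scaling. ADCY5, a major adenylyl cyclase of heart, read 8.96, 7.64, 8.67 and 8.74 in heart, against 4.23, 3.88, 4.17 and 4.15 in skeletal muscle. ADCY2, another cyclase, had the reverse pattern at 3.90, 3.97, 4.26 and 4.24 in heart, against 9.15, 7.81, 8.46 and 9.02 in skeletal muscle. The phosphodiesterases PDE1C and PDE3A, which break down cyclic nucleotides, were 11.8-fold and 4.3-fold higher in heart. The other of the 2 PDE3A probesets was not called (difference 0.29). AKAP13, an anchoring protein for protein kinase A, was 8.55-fold higher at its brightest probeset, with its other 2 probesets not called. EDNRA, an endothelin receptor, averaged 7.32 ± 0.12 in heart and 4.31 ± 0.70 in skeletal muscle. ADRB1, the beta-1 adrenergic receptor, was called but read only 4.43 ± 0.31 in heart and 3.85 ± 0.15 in skeletal muscle, a call lost without heart replicate 2 or 3, without skeletal muscle replicate 1 and after the housekeeping shift. GPR22, an orphan receptor, read 8.69, 9.86, 9.17 and 9.08 in heart, against 3.61, 3.06, 3.29 and 3.19 in skeletal muscle, 60.2-fold higher in heart. PRKAR1A, a regulatory subunit of protein kinase A kept in the neuromuscular junction list, was 4.25-fold higher in heart. CHRNB1, a subunit of the muscle acetylcholine receptor, was 2.63-fold lower. RAPSN, which clusters that receptor, was not called at its brighter probeset (adjusted p = 0.00186), while the other of its 2 probesets was called lower. The brighter probeset was called without heart replicate 3 or skeletal muscle replicate 1, after the housekeeping shift, and with dim probesets filtered out. With skeletal muscle 1, 3 and 4 left out its difference was -1.57, in place of -1.45. TRIM72 and BIN1, of membrane repair and T-tubules, were each 11.7-fold lower in heart, TRIM72 20.2-fold without skeletal muscle 1. For TRIM72, 1 of 3 probesets was called lower. Of the 4 probesets of BIN1, 2 were called lower, and the one brightest over all 39 arrays was not called (difference -0.15).

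Secreted factors and chamber genes showed spread inside heart. CORIN, the protease that activates natriuretic peptides, read 8.29, 8.80, 8.88 and 8.25 in heart, against 3.73, 3.68, 3.59 and 3.69 in skeletal muscle, 29.5-fold higher in heart. NPPB, B-type natriuretic peptide, read 7.67, 8.15, 4.91 and 5.47 in heart, against 4.76, 4.67, 5.53 and 4.89 in skeletal muscle, and was not called. MYL4, the essential light chain known from atrium, read 9.73, 10.32, 5.25 and 6.37 in heart, against 6.13, 5.25, 5.10 and 4.99 in skeletal muscle. This brightest probeset was not called, while the other of the 2 MYL4 probesets was called higher in heart. Heart 1 and 2 were high and heart 3 and 4 low for both NPPB and MYL4, while the also atrial MYL7 was bright on all 4. The brightest MYL4 probeset was called without heart replicate 3 (difference 3.44, adjusted p = 7.67e-06) or 4 (difference 3.07), and so was NPPB (differences 2.13 and 1.95). IRX4, a ventricular factor, read 3.86 to 4.19 in heart and 3.42 to 3.76 in skeletal muscle, near background in both, and was called higher without skeletal muscle replicate 1 (difference 0.49). Whether these samples differ in the part of the heart taken was not tested. FST, follistatin, was 2.7-fold lower in heart, a call that was lost in each setting that left out 1 array other than skeletal muscle 4, and with the replicate number as a block (adjusted p = 0.00156).

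Carbohydrate metabolism included enzymes whose related forms differed in direction or size. Of 65 genes of glycolysis and glycogen, 5 were higher in heart and 10 lower, beside 2.74% and 1.50% of all genes. HK1, hexokinase 1, read 7.73, 7.39, 7.87 and 8.47 in heart, against 4.49, 4.43, 4.42 and 4.25 in skeletal muscle. HK2, the hexokinase usually named for muscle, averaged 5.06 ± 0.35 in heart and 5.56 ± 0.34 in skeletal muscle and was not called. PYGB, the brain form of glycogen phosphorylase, read 10.42, 9.98, 10.82 and 9.82 in heart, against 6.94, 6.69, 6.26 and 5.58 in skeletal muscle, 14.9-fold higher in heart. PYGM, the muscle form, averaged 11.01 ± 0.41 in heart and 12.08 ± 0.70 in skeletal muscle and was not called, but was called lower in heart without skeletal muscle replicate 1 (adjusted p = 0.000206). PGAM1, a phosphoglycerate mutase, was 4.07-fold higher in heart, and PGAM2, its muscle form, averaged 11.36 ± 0.41 in heart and 11.95 ± 0.08 in skeletal muscle and was not called. GPD1L, a relative of glycerol-3-phosphate dehydrogenase, was 7.75-fold higher in heart.

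Several regulators were among the genes lower in heart. FBP2, the muscle fructose bisphosphatase, read 5.43, 6.43, 5.35 and 5.85 in heart, against 10.80, 10.94, 10.26 and 10.74 in skeletal muscle, 30.3-fold lower in heart. PFKFB1 and PFKFB3, which set the level of fructose 2,6-bisphosphate, were 25.5-fold and 13.7-fold lower. LDHA, the lactate dehydrogenase of fast muscle, averaged 11.13 ± 0.35 in heart and 12.35 ± 0.31 in skeletal muscle, bright in both and 2.33-fold lower in heart. PPP1R1A, an inhibitor of the phosphatase that acts on glycogen enzymes, was 8.28-fold lower, and SLC37A4, the glucose-6-phosphate transporter, 6.26-fold lower. AMPD1, the muscle AMP deaminase of the purine cycle, read 3.21, 3.30, 3.17 and 3.29 in heart, against 10.08, 11.38, 9.32 and 10.81 in skeletal muscle, 142-fold lower in heart. AK1, adenylate kinase 1, was 5.34-fold lower, a call lost without heart replicate 2 or skeletal muscle replicate 3. CKMT2, the creatine kinase of muscle mitochondria, averaged 11.61 ± 0.28 in heart and 11.76 ± 0.64 in skeletal muscle (95% confidence interval of the difference -0.69 to 0.39).

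Mitochondrial genes hardly separated the organs at this threshold. Of 63 subunits of oxidative phosphorylation, 1 was higher in heart and 0 lower, or 21 higher and 0 lower by limma's unadjusted p under 0.05, where all genes gave 10.6% and 10.8%. That one was COX4I2, an alternative subunit of cytochrome oxidase, at 7.17, 8.11, 7.57 and 6.99 in heart and 5.04, 6.25, 4.45 and 5.03 in skeletal muscle. The list had a median difference of 0.28 with 57 of 63 genes above 0, but after the housekeeping shift the median was -0.08 with 22 above 0, so its direction depends on the scaling. The citrate cycle list had 1 of 40 higher, SLC25A5, an ATP-ADP carrier that averaged 9.70 ± 0.35 in heart and 7.92 ± 0.54 in skeletal muscle, and 0 lower. Fatty acid use gave 1 of 60 higher and 1 lower. The calls of these 3 lists were near the shares of all genes, 2.74% higher and 1.50% lower. By limma's unadjusted p under 0.05, the citrate cycle list gave 10 higher and 1 lower and fatty acid use 19 higher and 7 lower. After the housekeeping shift the median of fatty acid use went from 0.21 to -0.16 and that of the citrate cycle from 0.24 to -0.13. The gene of fatty acid use called higher in heart was OXCT1, which activates ketone bodies for oxidation. It read 8.93, 9.45, 9.06 and 7.52 in heart, against 5.31, 6.28, 5.24 and 5.58 in skeletal muscle. The calls on COX4I2, SLC25A5 and OXCT1 were lost with only the 8 arrays in the limma fit. With skeletal muscle 1, 3 and 4 left out their differences were 1.21, 1.68 and 2.46, in place of 2.27, 1.78 and 3.14. FABP3, the fatty acid binding protein of heart and muscle, averaged 12.29 ± 0.46 in heart and 10.92 ± 0.90 in skeletal muscle and was not called (difference 1.37, 95% confidence interval 0.47 to 2.27). LPL, lipoprotein lipase, and CD36, a fatty acid carrier, were lowest on skeletal muscle 1 and were not called. UCP3, a mitochondrial carrier, spread widely in heart, at 5.76, 7.04, 9.14 and 9.87, against 10.31, 9.21, 10.98 and 10.70 in skeletal muscle. It was not called, but was without heart replicate 4 (difference -2.99) and after the housekeeping shift (difference -2.71). PPARGC1A, the coactivator of mitochondrial genes, read 8.42 to 9.05 in heart and 3.75, 7.64, 7.73 and 8.22 in skeletal muscle, with skeletal muscle 1 at background. Without that array the differences were 0.77 for PPARGC1A, 0.56 for CD36 and 1.49 for LPL, in place of 1.80, 1.65 and 2.25, and none was called.

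**Figure D5:**
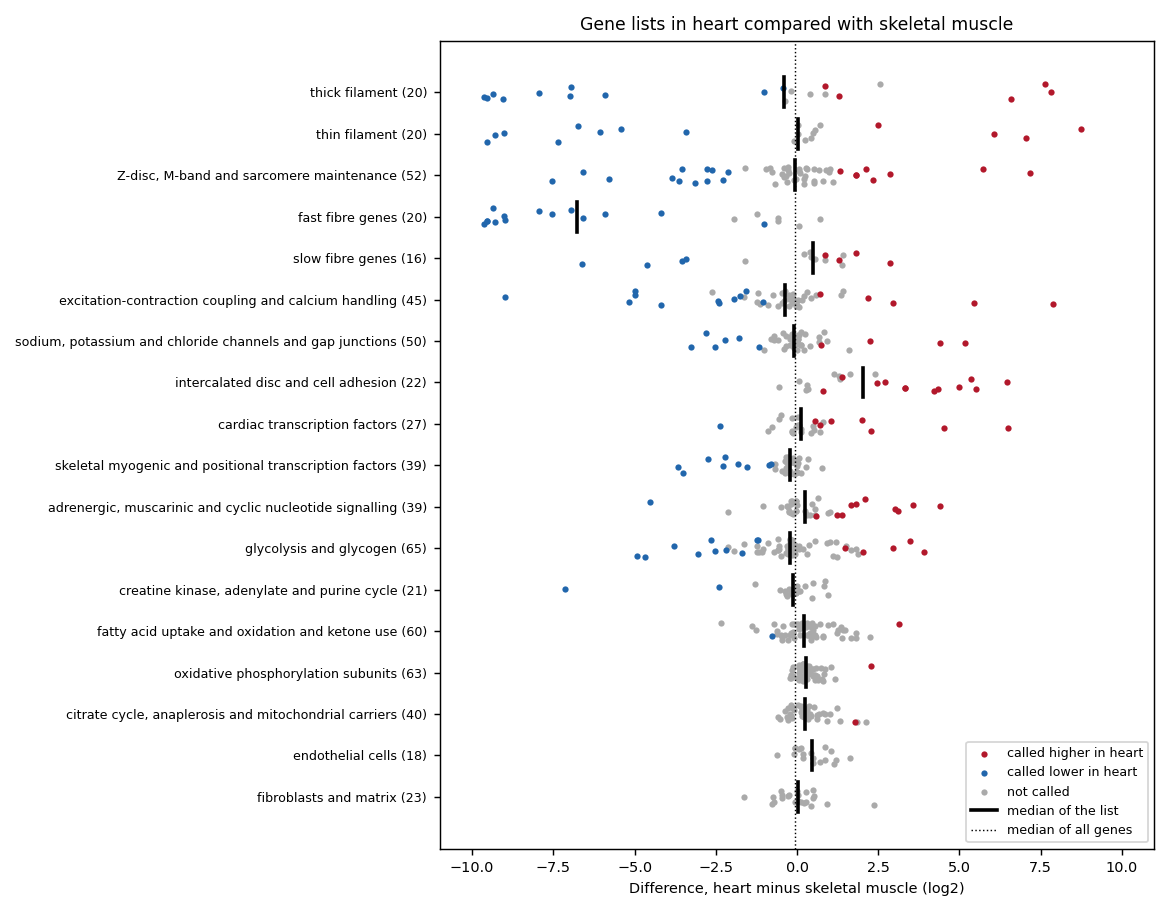
Difference between heart and skeletal muscle (log2, horizontal axis) of each measured gene of 18 lists, with the number of genes in brackets, the median of the list as a black bar and the median of all genes, -0.05, as a dotted line. Fast fibre genes lie far to the left (median -6.78) and intercalated disc genes to the right (median 2.02), while the 63 oxidative phosphorylation genes form a tight group near 0.

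Markers of other cell types gave few calls. Of the endothelial, fibroblast, Schwann cell, mesothelial and leukocyte lists, none of 18, 23, 13, 8 and 17 genes was called by limma, and 6, 5, 1, 0 and 0 had an unadjusted p under 0.05, beside 21.3% of all genes in either direction. The 6 endothelial genes were higher in heart. Mean signal was below 5 in both organs for 4, 8, 12, 8 and 14 genes of these lists, in the same order. The Schwann cell, mesothelial and leukocyte lists thus had little signal to compare. The summed endothelial signal nevertheless spanned 2910 to 3097 in heart and 758.7 to 2648 in skeletal muscle, and the summed fibroblast signal 5931 to 19020 in heart and 1611 to 28560 in skeletal muscle. VWF, of endothelium, averaged 9.69 ± 0.23 in heart and 8.48 ± 0.99 in skeletal muscle, with skeletal muscle 3 the lowest. COL1A1, collagen of fibroblasts, read 8.99, 11.52, 8.10 and 8.41 in heart, against 12.32, 12.69, 8.20 and 6.82 in skeletal muscle. Among smooth muscle and pericyte genes SMTN, smoothelin, was called higher in heart (6.42-fold), and among adipocyte genes AQP7, a glycerol channel, was called higher (6.59-fold). The call on SMTN was lost without heart replicate 1, 3 or 4, without skeletal muscle replicate 1 or 2 and after the housekeeping shift. Their part in the muscle differences was not tested. In tissue samples, fewer cells of a type and less RNA per cell cannot be told apart.

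The called genes were also set beside the other 8 organs. Of the 413 genes higher in heart, 224 (54.2%) had their highest mean of all 10 organs in heart, and 74 had it in brain. Of the 226 genes lower in heart, 158 (69.9%) had their highest mean in skeletal muscle, 16 in brain and 11 in pancreas. The calls rest on the same heart and skeletal muscle values, so a peak in the organ called higher is partly built in. The share of all genes that peak in each organ was not counted, so these numbers only describe the called genes. In the genes higher in heart the median level was 7.86 in heart and 5.06 in skeletal muscle, beside 5.56 over the other 8 organs. In the genes lower in heart it was 4.82 in heart and 8.17 in skeletal muscle, beside 4.66 over the other 8 organs. Several of the genes furthest apart were nevertheless read elsewhere, as FHL2 in jejunum at 9.37, CDH2 in liver at 9.33 and KCNIP2 in brain at 8.52. One gene among the 12 furthest above in heart had probesets that disagreed. POLR2M, annotated as a subunit of RNA polymerase II, read 12.36, 11.87, 12.44 and 11.91 in heart, against 5.08, 6.40, 4.29 and 5.61 in skeletal muscle. Of its 5 probesets, 2 were called higher in heart and 3 were not called, and the probeset brightest over all 39 arrays ran the other way (difference -0.96, adjusted p = 0.0169). In man the same locus also encodes MYZAP, a protein of the intercalated disc, and the annotation used here does not separate the transcripts.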

How the data were processed

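Total RNA of each organ was hybridized to Affymetrix Canine Version 2.0 arrays. The authors processed the scans in Partek (RMA with adjustment for GC content and probe sequence, background correction, quantile normalization and median polish), and the deposited values are log2 signals of 42860 probesets on 39 arrays. Probesets were named from the platform annotation, in which 29254 carried 1 gene symbol, 439 several and 13167 none. A gene was read from its single-symbol probeset with the highest mean over the 8 arrays. A fold given for a gene is that of this 1 probeset, and further probesets of the gene were not always called. Differences between heart and skeletal muscle were tested in limma 3.58.1 (R 4.3.3) with a mean for each of 10 organs fitted to all 39 arrays, so that the error is shared by all organs, and p-values were adjusted by Benjamini-Hochberg over all probesets. In simulated data the fit recovered 43.3% of 2-fold, 88.1% of 4-fold and 100% of 16-fold changes, so a gene not called may still differ. The simulated noise had the same size in every organ. It does not carry the wider spread of the skeletal muscle arrays and cannot test the calls against that spread. The scan date that the study used as a random factor was not used here. P-values and SEs rest on a spread pooled over the samples of all 10 organs, not on the spread among the skeletal muscle arrays alone. That spread can be wider, as for MYH1, with an SD of 2.20 in skeletal muscle and an SE of the difference of 0.56. The small number of arrays, 4 in each organ, limits the precision.

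The 38 probesets of listed pancreatic genes were left out of the counts. Named genes are the 4 markers, the 12 genes furthest apart in each direction, up to 6 members of each list per direction, the paired genes and genes whose role is described, while TTN, JUP, ADRB1, CKMT2, MB and DSG2 were chosen after their values were seen. The comparison and its gene lists were drawn up with earlier results of these data known. The alternatives tried were fewer arrays, other scalings, a filter on dim probesets, a replicate block and other choices of probeset.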

Additional observations from a re-analysis of the deposited data

Results flagged for a closer look

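In each group of 4 arrays the highest or lowest value was compared with the spread of the others for 290 groups of named genes, and 27 stood apart (9.31%), beside about 1 in 20 that chance would flag. No explanation of these values was tested.

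Skeletal muscle 1 gave 9 of them, more than any other array. It was the lowest of its group for ACTA1 at 13.68, TPM1 at 11.34, TMEM38A at 4.02, JPH1 at 3.92, MYF6 at 5.69, TBX15 at 3.64 and PPARGC1A at 3.75, and the highest for MEIS2 at 6.60 and ZFPM2 at 4.05. The other skeletal muscle arrays gave 3, with SORBS2 at 3.90 on skeletal muscle 2 and HOXA4 at 7.68 and VWF at 7.0 on skeletal muscle 3.

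Heart 1 was the highest of its group for ANKRD1 at 13.03, TTN at 12.82, ANKRD2 at 4.54 and NR2F1 at 4.15, and the lowest for CACNA1S at 4.14 and FST at 3.56. Heart 2 was the lowest for TNNI3 at 12.93 and MYLK3 at 10.35 and the highest for IRX4 at 4.19. Heart 3 was the highest for NEB at 5.81 and the lowest for SLC37A4 at 4.17. Heart 4 was the highest for ATP2A2 at 13.14, PPP1R1A at 9.40, VWF at 10.02 and MYH4 at 4.29. The whole range of the group was at least 1 in 11 of the 27 cases.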

How the results depend on the processing

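Counts stayed within 1.5 times under the intensity trend, the filter on dim probesets and the setting aside of all 178 probesets more than 10-fold above the mean of the other 7 organs in pancreas. With only the 8 arrays in the fit, which then estimate the error alone, 198 probesets were higher in heart and 82 lower, of which 121 and 68 passed 10-fold, and 276 of these 280 were also called with all arrays. After the housekeeping shift 657 were higher and 1153 lower. With skeletal muscle 1, 3 and 4 left out, which leaves 1 skeletal muscle array assumed to vary like the other organs, 446 were higher and 600 lower. With 1 array left out, counts ranged from 915 to 1089 higher and from 490 to 794 lower, and from 180 to 205 and 121 to 141 past 10-fold. The 794 came without skeletal muscle 1. Same-numbered arrays of heart and skeletal muscle had deviations from their group means that correlated at 0.18, 0.46, -0.03 and -0.01, so the numbers were not taken as pairs. Heart 3 with skeletal muscle 4 gave 0.28 and heart 4 with skeletal muscle 3 gave 0.30. The organs came from the same dogs, and which arrays share a dog is not given in the sources used here. With the replicate block 1218 probesets were higher and 648 lower, and 192 and 145 passed 10-fold. Among 145 named genes, 110 of them called, calls were lost for 59 with only the 8 arrays, 23 with skeletal muscle 1, 3 and 4 left out, 8 after the housekeeping shift, 4 with the probeset brightest over all 39 arrays 1 with the replicate block (FST) and 1 with the intensity trend (MYL3). Most of the 59 calls lost with only the 8 arrays are not marked gene by gene above. They include those on JPH1, KCNJ12, MYH4, PDE3A, TBX1, TBX15, TEAD4, TRDN and TRIM55. Genes with large differences are among them too, as ACTC1, ANKRD1, CA3, CASQ1, CSRP3, FHL3, MYH1, MYH3, MYOT, MYOZ1 and NEB. POLR2M reversed to -0.96 with the probeset brightest over all 39 arrays. The cause of these changes was not tested. Genes near background have little signal to compare.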
